A study of Mus musculus with 2 samples.

Results

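The levels of 42 DNA repair genes were compared between a library of haematopoietic stem cells from wild-type mice and one from Per2-deficient mice. None of the 40 that were measured at 1 FPKM or more passed 2-fold on the scale of FPKM + 1. Of all genes 2.25% did, and of genes other than small and predicted RNAs 0.472%. Both shares are too small for a count of 0 to set the repair genes apart. The set was chosen by symbol: 14 of homologous recombination, 8 of the Fanconi anaemia pathway, 6 of end joining, 3 of mismatch repair, 4 of nucleotide excision repair and 7 of base excision repair. The first 3 groups, 28 genes, repair double-strand breaks and crosslinks. The last 3 groups, 14 genes, act on other damage, so the set is wider than double-strand and crosslink repair. All 42 symbols were in the files, and 40 reached 1 FPKM in either library, out of 11121 genes at that level among 23961 gene symbols. FPKM are fragment counts relative to transcript length and library size, so levels of different genes can be compared per length. Fancb, at 0.997 and 1.15 FPKM, was the lowest gene inside that limit. Rad51c, at 0.728 and 0.688 FPKM, and Lig4, at 0.573 and 0.651 FPKM, fell outside it.

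RNA was sequenced from bone marrow haematopoietic stem cells, which renew all blood lineages, enriched by cell sorting from untreated C57BL/6 mice kept under a light/dark cycle. One library came from the wild type (Per2wt) and 1 from mice deficient in Per2 (Per2def), a repressor of the circadian clock. Strain, housing and absence of treatment were shared by both. The sources used here do not give the Per2 allele, the sort markers, the age of the mice, the time of day or the number of animals behind each library. Each genotype has 1 library and no replicate, so nothing was tested and every difference below is one between these libraries. Pairs of levels are given with Per2wt first and Per2def second. Differences are log2(FPKM + 1) in Per2def minus the same in Per2wt, a scale that understates the difference of low genes, and percentages are plain ratios of FPKM.

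Per2 itself was at 1.96 and 6.16 FPKM, higher in the library labelled Per2def (log2 difference 1.27), and with the allele not named this value does not check the label, so Per2wt and Per2def stand for the libraries as labelled. Of the stem cell markers, the most abundant were Cd34 (90.5 and 83.9 FPKM), Kit (42.7 and 43.6 FPKM) and Meis1 (20.7 and 20.4 FPKM). Slamf1, Fgd5 and Hoxb5 were under 1 FPKM in both libraries. Of the 12 stem cell markers at 1 FPKM or more 5 were higher in Per2def and 7 lower, with summed levels of 215 and 206 FPKM. Past 25% was 1 of the 12 (8.33%), downwards, against 4.38% of all genes. Low genes shared a most common Per2def to Per2wt ratio of 0.805, which puts the relative depth of the Per2def library at 1.24 times that of Per2wt, with the absolute depth unknown. Over all 11121 genes the median difference was 0.05 and 62% of genes were higher in Per2def. Neutrophil and erythroid markers differed more than repair genes did. Of 13 neutrophil markers 12 were higher in Per2def and 12 were past 25%, and their summed level was 535 and 1018 FPKM, with Retnlg listed at 0 in Per2def. Of 13 erythroid markers 12 were also past 25%, 6 upwards and 6 downwards, against 12.6% of all genes in either direction. The erythroid differences ran from −4.91 to 0.75, with summed levels of 805 and 760 FPKM. The −4.91 was the beta globin row Hbb-bs, at 29.2 and 0.003 FPKM, while the beta globin rows Hbb-bt and Hbb-b1 differed by −0.77 and −0.63. How reads were shared among these rows was not tested. The other marker lists are given by summed level, with the number of genes higher in Per2def in brackets, against 62% of all genes. Megakaryocyte markers were at 47.6 and 37.3 FPKM (3 of 8). Lymphocyte markers were at 40.2 and 47.4 FPKM (4 of 5), with Igll1 at 0 in both and Ms4a1 at 0 in Per2wt. Monocyte and macrophage markers were at 55.0 and 69.7 FPKM (4 of 5). Multipotent progenitor markers were at 332 and 362 FPKM (5 of 8), and endothelial and stromal markers at 18.0 and 20.02 FPKM (3 of 4). The part of these cells in the repair gene values was not tested, and a different share of cells cannot be told apart from different RNA per cell in such bulk samples.

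Cells mend a broken DNA duplex in either of 2 main ways. Homologous recombination copies the sister chromatid and therefore works in S and G2 phase, while end joining rejoins the ends directly and works throughout the cell cycle, including in resting stem cells. The Fanconi anaemia proteins unhook crosslinks between the strands, and their inherited loss causes bone marrow failure through loss of haematopoietic stem cells. Mismatch repair corrects errors of replication, nucleotide excision repair removes bulky lesions, and base excision repair replaces single damaged bases.

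Promoter sequence is shown for the members whose windows hold a site for a cell cycle or clock factor, since the wild-type and Per2-deficient cells differ in a clock gene and many repair genes are made in S phase. The windows are the 250 bases before the gene start, from RefSeq (GRCm38.p6), which had an entry for 34 of the 42 genes, 32 of them at 1 FPKM or more. A RefSeq start can lie inside a gene as GENCODE draws it, and 11 of the 37 windows of these genes are free of annotated exons. The first motif, bound by the E2F factors that switch on S phase genes, was searched on both strands as TTTCCCGC, TTTCGCGC, TTTGCCGC or TTTGGCGC. It was found in 5 of the 32 genes (15.6%), against 4.19% of 8208 genes at 1 FPKM or more with a window and 1.86% of all 32851 windows. The sites of 4 of the 5, all but Msh3, are given 5′ to 3′, each on the strand of its gene. Up to 9 bases are shown on each side, with the match in capitals.
Bard1: gccgctcagTTTCCCGCtcaggaagt
Brca2: taggccacaGCGGGAAAcagacacac
Fancg: tcttttcagTTTCCCGCggaaccgtc
Xrcc6: ggggtggaaGCGGGAAAtgcgagtgg
All 5 genes were higher in Per2def, with a median difference of 0.12, as were 62% of all genes. Of the 27 genes without a match 15 were higher, with a median of 0.04. The motif was chosen after values were seen, and its relation to these differences was not tested. Xrcc6 turned just below 0 after correction for transcript length. The Fancg, Xrcc6 and Msh3 sites lie in annotated exons. That of Fancg is 153 bases and that of Xrcc6 28488 bases inside the gene's span in GENCODE. Neither of these is upstream of every annotated start. The Msh3 site lies 202 bases before the GENCODE start of Msh3. The second motif was the E-box CACGTG, the site of the CLOCK and BMAL1 pair that PER2 represses and also of MYC. It reads the same on both strands and was found in 4 of the 32 genes (12.5%), against 10.2% of genes at 1 FPKM or more and 6.02% of all windows.
Apex1: ctccagaacCACGTGggggcggag
Lig3: acagcgaccCACGTGgcgaccgga
Parp1: tcccaaggaCACGTGctgaagccc
Xrcc5: tgtgtgggaCACGTGgagatcaga
Of these 4 genes 3 were higher in Per2def, with a median difference of 0.08, against 0.07 over the 28 genes without the E-box. A match describes the letters and is not a bound site.

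Whole windows follow for 3 genes in which no annotated exon lies in the window, with E2F and E-box matches in capitals. Parp1 (chr1:180568641-180568890, plus strand) is shown as the most abundant repair gene, Brca2 (chr5:150522371-150522620, plus strand) as a recombination gene with an E2F match, and Fanca (chr8:123318577-123318826, minus strand) as a Fanconi gene that was higher in Per2def with neither match.
Parp1: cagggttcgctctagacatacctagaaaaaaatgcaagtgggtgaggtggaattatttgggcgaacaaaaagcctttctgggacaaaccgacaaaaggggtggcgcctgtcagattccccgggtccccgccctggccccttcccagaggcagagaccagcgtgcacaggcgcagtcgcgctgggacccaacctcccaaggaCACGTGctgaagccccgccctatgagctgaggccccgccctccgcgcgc
Brca2: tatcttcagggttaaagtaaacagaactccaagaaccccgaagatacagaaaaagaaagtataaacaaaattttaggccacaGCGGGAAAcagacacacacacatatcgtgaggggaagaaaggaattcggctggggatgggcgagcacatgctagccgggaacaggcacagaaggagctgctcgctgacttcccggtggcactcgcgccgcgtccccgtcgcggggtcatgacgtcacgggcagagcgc
Fanca: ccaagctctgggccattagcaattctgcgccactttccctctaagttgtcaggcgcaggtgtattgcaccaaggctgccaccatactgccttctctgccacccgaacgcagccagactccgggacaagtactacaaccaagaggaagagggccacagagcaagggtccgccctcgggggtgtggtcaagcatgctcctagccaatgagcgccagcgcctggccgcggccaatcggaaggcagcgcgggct
The Parp1 match starts 49 bases before the gene start and the Brca2 match 168 bases before it. The Fanca window instead holds the CCAAT box on its own strand, at 50 and at 23 bases before the start, a motif found on either strand in 17 of the 32 genes and in 41.0% of genes at 1 FPKM or more. That split went the other way: 9 of the 17 were higher, with a median of 0.02, against 11 of the 15 without it, with a median of 0.11. Also searched, the CHR element of G2 genes (TTTGAA or TTCGAA, both strands), was in 2 of the 32 genes (6.25%) against 14.4% of genes at 1 FPKM or more, with medians of 0.03 with it and 0.08 without.

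Repair genes kept nearly the same order of level in the 2 libraries. Parp1, which senses strand breaks and builds chains of ADP-ribose on them, was the most abundant at 37.6 and 39.3 FPKM. It was followed in both libraries by Xrcc6, Apex1, Msh6, Ung, Xrcc1 and Rad50, in that order, from 20.6 FPKM down to 9.43 FPKM in Per2wt and from 21.4 FPKM down to 10.8 FPKM in Per2def. The median level of the 40 genes was 4.68 and 4.79 FPKM. Across the 40 genes the levels correlated at a Spearman rho of 0.97, a description over genes that share both libraries. The level differed by 10% or less in 21 genes (52.5%) and by 20% or less in 35 genes (87.5%). Over 9465 genes at a mean of 1 to 50 FPKM, small and predicted RNAs aside, these shares were 50.2% and 78.3% and the Spearman rho was 0.98. The 5 repair genes past 20% were Fancd2, Nbn, Prkdc and Exo1, all higher in Per2def, and Ercc1, which was lower.

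**Figure D1:**
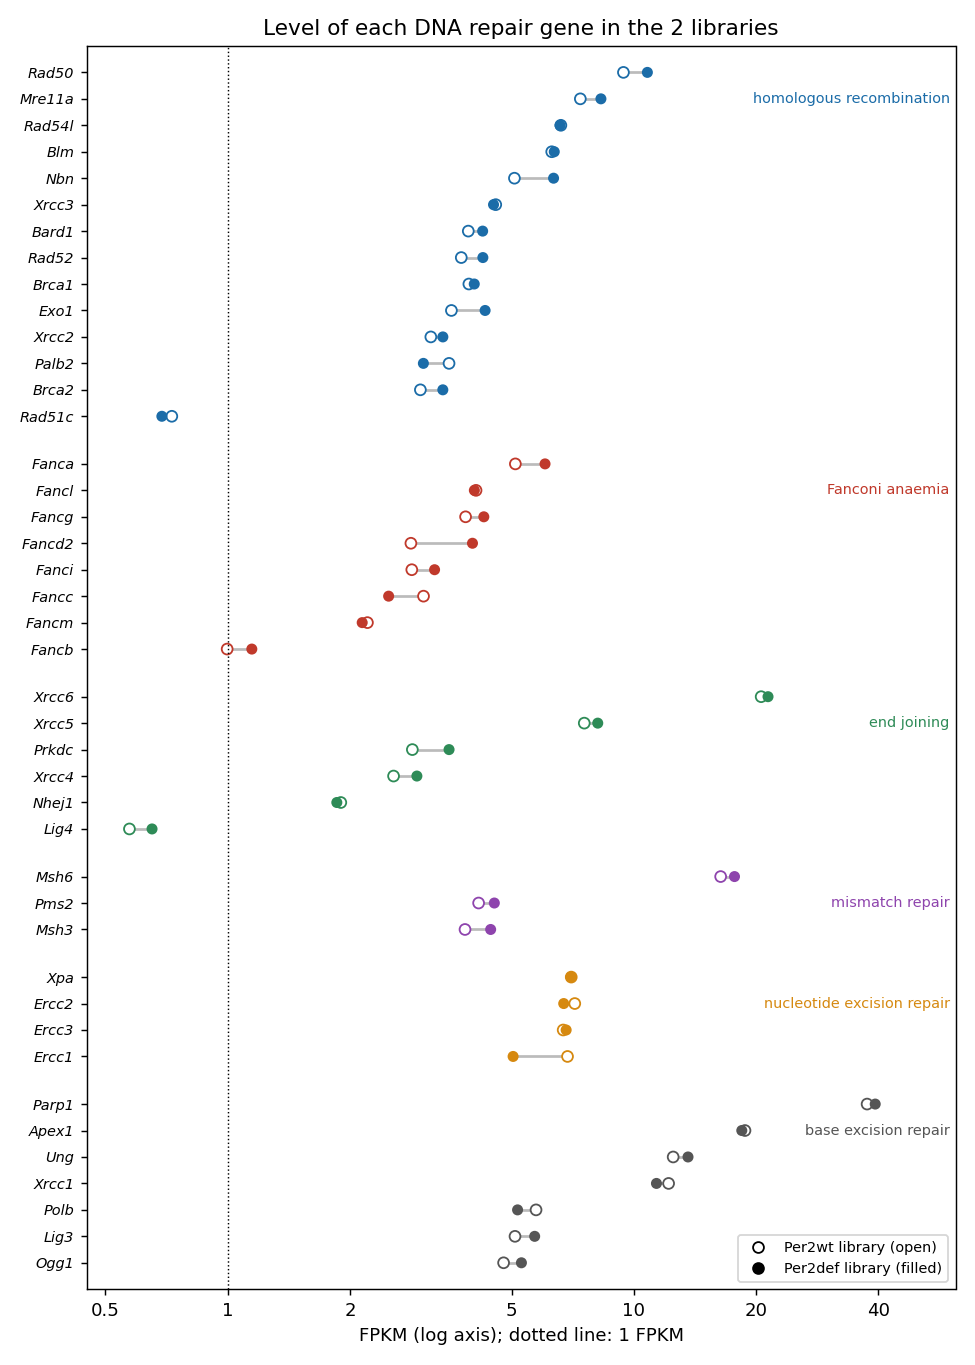
Level of each of the 42 repair genes in FPKM on a log axis, grouped by pathway, with 1 open circle for the Per2wt library and 1 filled circle for the Per2def library. Most pairs of circles touch or nearly touch, and Fancd2 (2.83 and 4.01 FPKM) and Ercc1 (6.87 and 5.04 FPKM) are the widest pairs at 1 FPKM or more.

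The share of repair genes that were higher in the Per2def library was near that of all genes. Of the 40 genes, 27 (67.5%) were higher and 13 lower, against 62% higher over all genes. The 27 include Fancb, which reached 1 FPKM only in Per2def, so its direction was fixed by the filter. The median difference was 0.10 against 0.05 over all genes. A smaller threshold was a 25% difference, meaning that FPKM + 1 in one library exceeded that in the other by 25%. It was passed by 2 of the 40 genes (5.00%), against 12.6% of all genes and 10.2% of genes other than small and predicted RNAs. Fancd2 passed it upwards, as 8.2% of all genes did, and Ercc1 downwards, as 4.38% did. Scaling the libraries to each other by the median ratio, the upper quartile or a fixed total left 25 of 40 (62.5%) higher, with medians of 0.06 to 0.07, against 54.2% to 55.9% of all genes, with medians of 0.02.

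**Figure D2:**
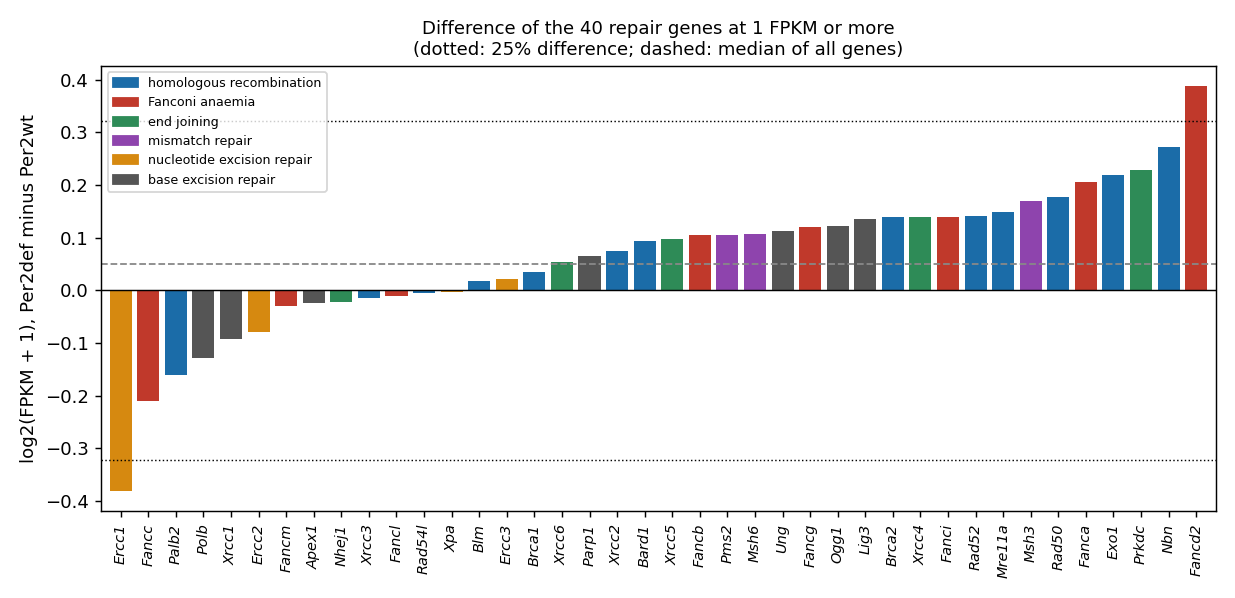
Difference of log2(FPKM + 1), Per2def minus Per2wt, for the 40 repair genes at 1 FPKM or more, in order of the difference and coloured by pathway. The dotted lines mark a 25% difference and the dashed line the median of all genes (0.05), and only the bars of Ercc1 (−0.38) and Fancd2 (0.39) cross a dotted line.

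In homologous recombination 10 of 13 genes (76.9%) were higher in Per2def with the values as deposited, against 62% of all genes, and none was past 25%. The median difference was 0.09 and the range −0.16 to 0.27. After correction for transcript length, described with the lengths, 8 of 13 were higher, against 4938 of 9878 protein-coding genes (49.99%). The corrected median of the 13 genes was 0.02, with Brca1 and Blm turned below 0. The summed level of the 13 genes was 64.2 and 69.6 FPKM. The widest differences in this group lay among the genes that detect and trim broken ends.

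The MRN complex, which binds broken ends first and starts to trim them, had all 3 of its genes higher in Per2def. Of all genes 62% were higher. The ATPase gene of the complex, Rad50, was at 9.43 and 10.8 FPKM (0.18). The nuclease gene Mre11a was at 7.39 and 8.30 FPKM (0.15). Nbn, whose protein recruits the ATM kinase, was at 5.08 and 6.35 FPKM, 24.8% higher (0.27), the widest difference in homologous recombination. The levels kept the order Rad50, Mre11a, Nbn in both libraries, and the ratio of Rad50 to Nbn was 1.86 in Per2wt and 1.70 in Per2def. Exo1, the exonuclease that extends the trimming, was at 3.56 and 4.30 FPKM (0.22), above its Per2wt level by 21.0%.

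The remaining genes of homologous recombination went both ways by small amounts. Brca1 was at 3.93 and 4.05 FPKM (0.04), and Bard1, whose protein forms a ubiquitin ligase with BRCA1, at 3.91 and 4.24 FPKM (0.09), so that the pair stood at close to equal levels in both libraries. Brca2, a mediator of strand exchange, was at 2.98 and 3.39 FPKM (0.14). Palb2, the bridge between BRCA1 and BRCA2, was the lowest by difference, at 3.51 and 3.03 FPKM (−0.16). Rad52, which anneals single strands, was at 3.76 and 4.25 FPKM (0.14). The strand exchange cofactor genes Xrcc2, at 3.16 and 3.39 FPKM (0.08), and Xrcc3, at 4.57 and 4.51 FPKM (−0.01), were nearly level. Rad54l, a motor that helps strand invasion, was at 6.61 and 6.58 FPKM (−0.01), and Blm, the helicase that takes joined strands apart, at 6.28 and 6.37 FPKM (0.02). Blm turned below 0 when the libraries were scaled to each other, and Rad54l, Blm and Xrcc3 were the 3 closest to level of this group.

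In the Fanconi anaemia pathway the gene of the central clamp, Fancd2, had the widest upward difference of all 40 genes, and its partner gene did not stand as far apart. Fancd2 (ENSMUSG00000034023.16, chromosome 6, 113531682 to 113597017, GRCm38) was at 2.83 and 4.01 FPKM, 41.8% higher (0.39). Fanci, whose protein closes around crosslinked DNA together with FANCD2 after both are ubiquitinated, was at 2.84 and 3.23 FPKM (0.14). The ratio of Fanci to Fancd2 was 1.01 in Per2wt and 0.807 in Per2def. Fancd2 lay inside the middle 95% of differences of genes at 1 to 5 FPKM other than small and predicted RNAs, which ran from −0.39 to 0.52. Fancd2 shares 257 exon bases with a gene on the other strand, Fancd2os, which was at 0.151 and 0.273 FPKM.

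The core complex genes, whose products form the ligase that ubiquitinates the clamp, split by sign. Fanca, a scaffold subunit, was at 5.11 and 6.05 FPKM (0.21). Fancg, its binding partner, was at 3.85 and 4.27 FPKM (0.12), and Fancb at 0.997 and 1.15 FPKM (0.10). Fancl, the ligase subunit itself, was at 4.09 and 4.05 FPKM (−0.01), and Fancm, the motor that anchors the complex on DNA, at 2.21 and 2.14 FPKM (−0.03). Fancc went furthest the other way, at 3.04 and 2.49 FPKM (−0.21). Of the 8 Fanconi genes 5 (62.5%) were higher and 3 lower, against 62% higher over all genes. The median was 0.11, and only Fancd2 passed 25%.

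End joining genes differed little, and the most abundant differed least among those that were higher. Xrcc6 and Xrcc5 encode the Ku ring that caps broken ends. Xrcc6 was at 20.6 and 21.4 FPKM (0.05), and Xrcc5 at 7.55 and 8.15 FPKM (0.10). The ratio of Xrcc6 to Xrcc5 was 2.73 and 2.63, although the proteins pair in equal numbers. Prkdc, the kinase that Ku recruits, was at 2.85 and 3.51 FPKM, 23.1% higher (0.23). Of the ligation genes, Xrcc4 was at 2.56 and 2.92 FPKM (0.14) and Nhej1, its partner in bridging ends, at 1.90 and 1.86 FPKM (−0.02). Lig4, the ligase gene, was the lowest of the set, and its level relative to Xrcc4 was 0.224 in Per2wt and 0.223 in Per2def. Of the 5 end joining genes at 1 FPKM or more 4 were higher, against 62% of all genes, and the median was 0.10.

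All 3 mismatch repair genes were higher in Per2def by similar amounts, where 62% of all genes were higher. Msh6, whose protein recognises single mismatches, was at 16.4 and 17.7 FPKM (0.11). Msh3, which recognises small loops, was at 3.84 and 4.44 FPKM (0.17), and Pms2, the nicking subunit, at 4.15 and 4.54 FPKM (0.10). Msh6 exceeded Msh3 by 4.26 times in Per2wt and 3.99 times in Per2def.

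Nucleotide excision repair was the 1 group with a median below 0, and 1 gene, Ercc1, set its range. Ercc1 (ENSMUSG00000003549.9, chromosome 7, 19344778 to 19356524, GRCm38) encodes the partner of the XPF nuclease, which cuts beside bulky lesions and also at crosslinks. It was at 6.87 and 5.04 FPKM, lower in Per2def with a ratio of 0.734 (−0.38). This lay outside the middle 95% of differences of genes at 5 to 20 FPKM other than small and predicted RNAs, −0.34 to 0.42, as did no other gene of the set for its level. The gene of the nuclease itself, Ercc4, which is outside the set, was at 2.94 and 2.99 FPKM (0.02), so the ratio of Ercc1 to Ercc4 was 2.34 in Per2wt and 1.69 in Per2def. Ercc1 overlaps Cd3eap on the other strand by 106 exon bases, and Cd3eap was at 7.25 and 7.27 FPKM.

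The other 3 genes of nucleotide excision repair were close to level. Ercc2 and Ercc3 encode the helicases of the transcription factor TFIIH that open the lesion. Ercc2 was at 7.16 and 6.72 FPKM (−0.08), and Ercc3 at 6.70 and 6.82 FPKM (0.02), a difference that turned below 0 under each scaling. Xpa, which checks the damage, was at 7.02 and 7.002 FPKM (0.00). All 4 genes stood between 6.70 and 7.16 FPKM in Per2wt, a narrower span than in any other group of more than 3 genes, and between 5.04 and 7.002 FPKM in Per2def. The small RNA row Mir343, which shares 11 exon bases with Ercc2 on the same strand, was listed at 0 in Per2wt and at 165 FPKM in Per2def, and so short a row can reach a high FPKM from few reads.

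Base excision repair held most of the abundant repair genes, and its members went both ways, 4 higher and 3 lower. Of the enzymes that remove damaged bases, Ung, for uracil, was at 12.5 and 13.6 FPKM (0.11), and Ogg1, for oxidised guanine, at 4.78 and 5.29 FPKM (0.12). Apex1, which cuts the strand at the empty site, was at 18.8 and 18.5 FPKM (−0.02), and Polb, the polymerase that fills it, at 5.75 and 5.17 FPKM (−0.13). The scaffold gene Xrcc1 was lower, at 12.2 and 11.4 FPKM (−0.09), while the gene of its ligase partner, Lig3, was higher, at 5.10 and 5.70 FPKM (0.14), and their ratio was 2.39 in Per2wt and 2.00 in Per2def. Parp1 differed by 0.06. The group median was 0.06 and no member passed 25%. Apex1 shares 61.7% of its exon bases with a gene on the other strand, and Lig3 25.1% with Rffl, so both values are uncertain where strand was not used in counting. In all, 22 of the 42 repair genes share exon bases with a gene on the other strand.

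Other genes of the same pathways were also near the shares of all genes. Of 105 further repair genes at 1 FPKM or more, 59 (56.2%) were higher in Per2def and 46 lower, with a median of 0.03, against 62% higher over all genes. Past 25% were 7 upwards and 1 downwards (7.62% in all), against 8.2% and 4.38% of all genes. Without small and predicted RNAs, 10.2% of genes were past 25% in either direction. The 7 include Polm, which reached 1 FPKM only in Per2def, so the filter fixed its direction. In homologous recombination 19 of 32 were higher (median 0.04). The 3 past 25% were all higher: Zswim7, a recombination cofactor, at 2.70 and 4.99 FPKM (0.69), Bre, a subunit of a BRCA1 complex, at 9.54 and 14.1 FPKM (0.51), and Wrn, a helicase gene, at 6.44 and 8.62 FPKM (0.37). In the Fanconi pathway 8 of 17 were higher (median 0.00), with Fance, which links the core complex to FANCD2, at 5.42 and 7.74 FPKM (0.45), and with Ube2t, the enzyme that hands ubiquitin to FANCL, at 6.75 and 5.35 FPKM (−0.29), and Faap20, a partner of FANCA, at 10.9 and 8.67 FPKM (−0.30), both short of 25%.

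The remaining pathways gave 1 or 2 genes each past 25%, or none. In end joining 8 of 14 were higher (median 0.05), with the polymerase gene Polm at 0.448 and 1.03 FPKM (0.49) and Setmar at 0.780 and 1.16 FPKM (0.28). Both reached 1 FPKM only in Per2def, so the filter fixed their direction. H2afx, the histone that marks breaks, was at 42.6 and 35.2 FPKM (−0.27). In mismatch repair 2 of 5 were higher (median −0.07), none past 25%, with Pms1 at 2.26 and 2.03 FPKM (−0.11) and Msh5 at 1.08 and 1.21 FPKM (0.09). In nucleotide excision repair 11 of 20 were higher (median 0.03), with Uvssa, which acts where transcription stalls, at 1.51 and 2.23 FPKM (0.36), Xab2 at 17.8 and 15.4 FPKM (−0.20) and the TFIIH subunit gene Gtf2h2 at 7.39 and 6.39 FPKM (−0.18). In base excision repair 11 of 17 were higher (median 0.03), with the glycosylase gene Nthl1 at 2.24 and 3.52 FPKM (0.48), Apex2 at 2.59 and 1.71 FPKM (−0.41) and Aptx, which cleans ligation ends, at 1.24 and 1.64 FPKM (0.24). The medians of the last 2 pathways lay just below 0 when the libraries were scaled by the median ratio (−0.01 in each) or the upper quartile.

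Cell cycle genes lay apart by phase. Of 39 S phase genes 31 (79.5%) were higher in Per2def, against 62% of all genes. The S phase median was 0.12, against 0.05 over all genes, and the summed levels were 956 and 1032 FPKM. The most abundant were Pcna, the replication clamp, at 148 and 147 FPKM, Mcm7 at 70.2 and 81.1 FPKM and Mcm6, like Mcm7 a part of the replicative helicase, at 65.6 and 70.4 FPKM. Of 45 genes of G2 and mitosis 15 (33.3%) were higher, with a median of −0.07 and summed levels of 744 and 728 FPKM. The most abundant were Hmgb2 (86.4 and 83.1 FPKM), Tubb4b (81.9 and 85.2 FPKM) and Cks2 (53.1 and 50.4 FPKM). Beside these 2 medians, 0.12 in S phase and 0.05 over all genes, stand those of the set. They were 0.09 in homologous recombination, 0.11 in the Fanconi pathway, 0.10 in end joining and 0.11 in mismatch repair. Base excision repair stood at 0.06 and nucleotide excision repair at −0.04. The further genes of homologous recombination, the Fanconi pathway, end joining and mismatch repair had medians of 0.04, 0.00, 0.05 and −0.07. The part of the cell cycle in these values was not tested.

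**Figure D3:**
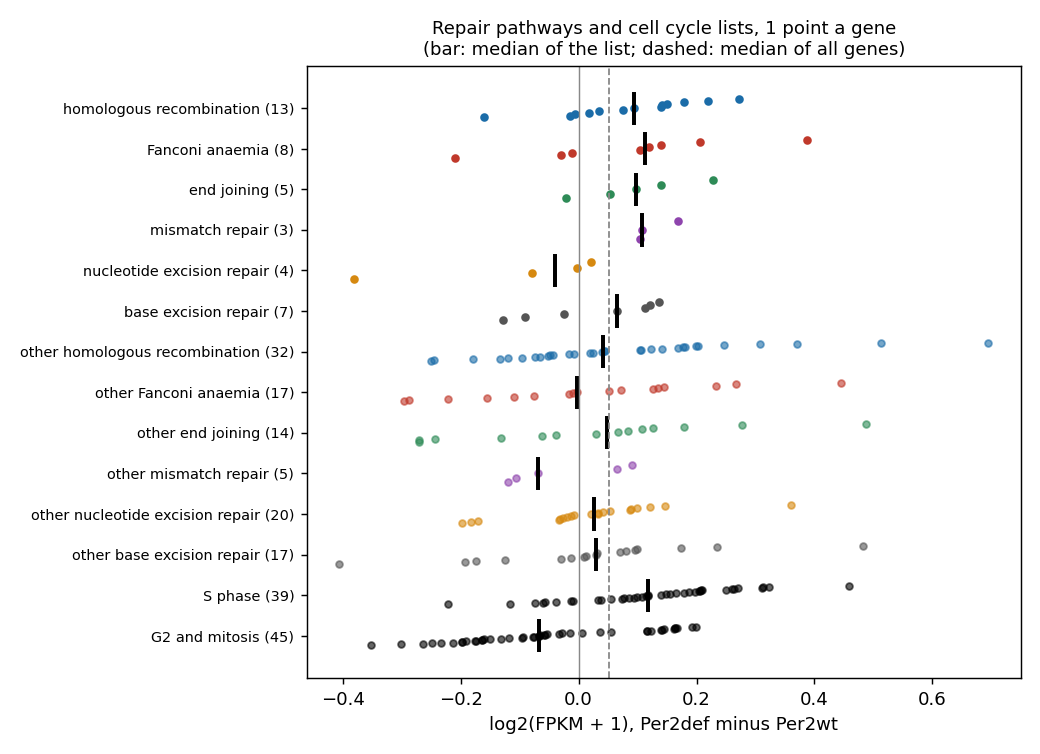
Differences of log2(FPKM + 1), Per2def minus Per2wt, with 1 point per gene at 1 FPKM or more, for the 6 groups of the repair set, the other genes of each pathway and the S phase and G2 lists, with the number of genes in brackets, the list median as a bar and the median of all genes dashed. The groups overlap widely, and nucleotide excision repair (−0.04) has the only median below 0 among the 6 groups.

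Longer repair genes tended to be the higher ones in Per2def, and so did genes at large. Transcript lengths are those of the longest transcript in GENCODE M21. Of the 5 repair genes under 2000 bases 4 were lower in Per2def and 1 higher, and of the 14 genes of 4500 bases or more 12 were higher and 2 lower. The medians were −0.02 and 0.14. Over all protein-coding genes 50.7% of 2060 under 2000 bases were higher (median 0.00) and 71.2% of 2805 at 4500 bases or more (median 0.08). Spearman's rho between length and difference was 0.44 across the 40 repair genes and 0.14 across 9878 protein-coding genes, as descriptions over genes measured in the same libraries. The longest transcript of Ercc1 has 1375 bases and that of Fancd2 5512 bases, and the longest of the set, Prkdc, has 12647 bases. The median difference of genes of like length was then subtracted, a step chosen after seeing the data. After this subtraction 23 of 40 repair genes (57.5%) were higher, against 4938 of 9878 protein-coding genes (49.99%). The median was 0.02 over the repair genes and, by construction, 0 over protein-coding genes. Fancd2, at 0.31, no longer passed 25%, while Ercc1 stood at −0.38.

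**Figure D4:**
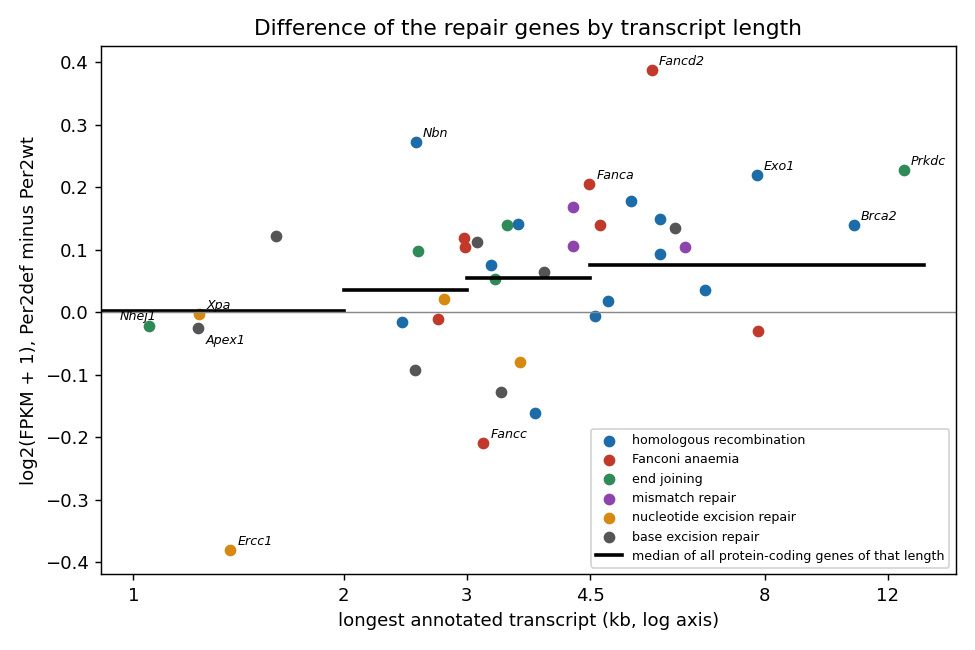
Difference of log2(FPKM + 1), Per2def minus Per2wt, of the 40 repair genes against the longest annotated transcript in kilobases on a log axis, 1 point per gene, with the median of all protein-coding genes of 4 length classes as bars. The bars climb from 0.00 to 0.08, and the points of Ercc1 and Fancd2 lie furthest from them.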

How the data were processed

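The authors deposited FPKM per gene for each of 2 libraries, made with Cufflinks per the submitters' processing notes, which also name CASAVA 1.8, TopHat and Bowtie2 and the builds GRCm38 and mm10. Poly(A) RNA was taken from TRIzol extracts into strand-marked libraries, per the labels' protocols. The sources used here do not give the annotation, the strand setting or the other versions. FPKM hold no read totals, so no counting interval can be given.

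Of 24487 rows per library, 9 without an estimate and 27 with symbols turned into dates were left out, and rows sharing a symbol were summed. A gene was kept if it reached 1 FPKM in either library. A gene that reached it in only 1 library is therefore counted in the direction of that library. The pseudocount was 1 FPKM. Thresholds of 25% (on FPKM + 1) and 2-fold described differences, without a test. Members and gene lists were chosen with earlier results of these data known. Named were all members, up to 3 genes of the largest difference per further pathway, up to 3 of the most abundant genes of a marker or cell cycle list, and Per2, with some of these not reported here. Ratios between members, Ercc4, overlapping genes, markers under 1 FPKM or at 0, beta globin rows, motifs and length classes were chosen after values were seen. Of 325 list symbols 324 were found, 4 by an older name in the RefSeq table, as Faap20 was. Positions are from GENCODE M21 (GRCm38). Alternatives were 3 scalings, pseudocounts, filters, the highest row per symbol and a length correction. The procedure was tested on simulated data with changes past 2-fold in genes at 5 FPKM or more. That test does not cover differences as small, or levels as low, as those of many members. Python 3.11.15, pandas 2.3.3 and scipy 1.17.1 were used.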

Additional observations from a re-analysis of the deposited data

How the results depend on the processing

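Values were called moved where an alternative shifted a difference by over 0.1 on the log2 scale or a count by over 1.5 times. That limit is about as wide as the group medians, so their ranges are given instead. The median over the members ran from 0.02 to 0.11, that of homologous recombination from 0.02 to 0.15, Fanconi from 0.07 to 0.21, end joining from 0.06 to 0.11, mismatch repair from 0.05 to 0.13, nucleotide excision repair from −0.07 to −0.04 and base excision repair from 0.01 to 0.07. The lowest were under the length correction in each group but nucleotide excision repair. With a floor of 5 FPKM, which left 20 members, 13 (65%) were higher in Per2def and 1 was past 25%, because fewer genes enter. At that floor 60.3% of 6623 genes were higher in Per2def and 11.1% were past 25%. After correction for transcript length, added after seeing the data, 1 member (2.5%) was past 25%, against 9.23% of protein-coding genes. No member passed 2-fold under any alternative run. Of 340 member differences under alternatives 1 moved, Fancd2 with a pseudocount of 0.1 FPKM (0.49). Each scaling turned 2 small member differences below 0 (Blm and Ercc3), and the length correction 4 (these, Brca1 and Xrcc6). No paired analysis was possible because there is 1 library per genotype, and for the same reason no library could be left out. Low genes carry the most counting error, which FPKM without read totals cannot bound.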
